A study of Mus musculus with 18 samples.

Results

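The TGF-beta pathway loci described here are the accessible chromatin regions of 10 genes in mouse lung endothelial cells (ECs): the ligands Tgfb1 and Tgfb2, the latent ligand carrier Ltbp1, the receptors Tgfbr1, Tgfbr2 and Tgfbr3, the signal transducers Smad2 and Smad3, the inhibitor Smad7 and the transcription factor Snai2. The data are 18 lists of ATAC-seq peaks, 1 per mouse. On chromosomes 1 to 19, X and Y, any peaks of the lists that shared 1 bp or more were joined, and joined regions found in 2 or more samples are called consensus regions here. A consensus region was assigned to one of the 10 genes when the gene had the nearest RefSeq transcription start site (TSS) to its midpoint, or when the region lay within the gene body. This gave 63 regions of 47338 in all, 57 by the nearest TSS and 6 by the gene body alone.

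All mice were FVB and carried a Col1α1-GFP reporter, which marks collagen-producing cells, and both sexes were used. The young mice had an age of 2 months and the aged mice one of 18 months. Mice of each age received either bleomycin at 1 U/kg or PBS (sham) into the trachea and were sampled at day 30. The groups were Young Sham (n = 5), Young Bleo (n = 4), Aged Sham (n = 4) and Aged Bleo (n = 5). ECs were sorted by FACS as CD31+ cells after CD45-, EpCAM- and GFP- gating, so the samples hold the ECs of all lung vessels together. In such bulk samples, fewer cells of an EC subtype and less open chromatin per cell cannot be told apart.

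TGF-beta ligands are secreted in a latent complex that latent TGF-beta binding proteins such as LTBP1 tether to the extracellular matrix. Active ligand is bound by the type II receptor TGFBR2, which recruits and activates the type I receptor TGFBR1. TGFBR3 (betaglycan) is a co-receptor that presents ligand, above all TGF-beta 2. The activated receptors phosphorylate SMAD2 and SMAD3, which bind DNA with partner factors, and SMAD7 is an induced inhibitor of the receptors. SNAI2 (Slug) is a transcriptional repressor known for its part in mesenchymal transitions, and in the fibrotic lung the pathway is best known as a driver of matrix production.

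The sequences of 5 regions on which the comparisons below turn are shown first, each as 200 bases around the strongest summit, plus strand, from the GRCm38.p6 (mm10) genome. Capitals mark matches on either strand to the ERG core CAGGAAG, the SMAD palindrome GTCTAGAC, the AP-1 site TGANTCA, the SOX site ATTGTT or the CTCF core AGGTGGCAG. None of these letter strings contains another. The CTCF core was added after the Snai2 sequence had been seen.
Tgfbr3 +51.4 kb, chr5:107238098-107238297, intron, with no match: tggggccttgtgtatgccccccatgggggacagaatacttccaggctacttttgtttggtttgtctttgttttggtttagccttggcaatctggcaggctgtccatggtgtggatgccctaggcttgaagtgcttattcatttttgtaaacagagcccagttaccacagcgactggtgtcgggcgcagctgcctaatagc
Ltbp1 +68.5 kb, chr17:75073943-75074142, intron, with 1 SOX match: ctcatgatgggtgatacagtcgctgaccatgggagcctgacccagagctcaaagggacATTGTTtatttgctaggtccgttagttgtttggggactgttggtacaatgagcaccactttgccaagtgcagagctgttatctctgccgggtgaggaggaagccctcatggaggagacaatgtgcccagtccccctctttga
Ltbp1 +82.0 kb, chr17:75087585-75087784, intron, with no match: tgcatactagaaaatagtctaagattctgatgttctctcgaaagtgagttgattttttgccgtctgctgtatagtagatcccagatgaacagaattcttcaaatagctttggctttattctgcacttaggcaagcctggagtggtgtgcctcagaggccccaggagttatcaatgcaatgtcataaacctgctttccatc
Ltbp1 +106.7 kb, chr17:75285406-75285605, intron, with 1 SMAD match: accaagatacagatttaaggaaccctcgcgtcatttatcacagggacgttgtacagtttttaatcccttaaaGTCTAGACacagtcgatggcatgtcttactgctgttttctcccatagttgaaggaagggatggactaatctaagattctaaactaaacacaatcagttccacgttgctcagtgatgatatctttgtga
Snai2 -4.3 kb, chr16:14701418-14701617, upstream of the gene, with 1 CTCF core match: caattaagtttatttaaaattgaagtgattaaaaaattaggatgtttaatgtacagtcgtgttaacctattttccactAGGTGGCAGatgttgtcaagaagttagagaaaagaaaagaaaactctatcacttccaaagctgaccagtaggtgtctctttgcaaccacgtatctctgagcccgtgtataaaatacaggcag

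Regions are named by the distance of their midpoint from the gene's TSS, positive in the direction of transcription. Ltbp1 has 2 annotated start regions, so the distances -50.1, +21.1, +106.7, +128.5, +176.7 and +190.7 kb of this gene are counted from the downstream TSS and the others from the upstream one. Ltbp1 +176.7 and +190.7 kb were assigned by the gene body alone, and their nearest TSS is that of Rasgrp3. So were Tgfbr3 +168.3, +168.8, +177.7 and +182.7 kb, whose nearest TSS is that of Cdc7. Over all 63 regions, the 200-base windows held the SOX site in 16 (25.4%, against 12.8% of all consensus regions) and the AP-1 site in 7 (11.1%, against 8.63%). The ERG core was present in 10 (15.9%, against 20%). The SMAD palindrome occurred once, in Ltbp1 +106.7 kb, and in 89 consensus regions (0.188%), whereas the CTCF core was found in 847 (1.79%) and, here, in Snai2 -4.3 kb (1.59% of the 63). Any of the sites searched before the CTCF core was present in 26 regions (41.3%, against 35.3%), and the median GC content was 52.5%, against 53.0% in all regions. A match describes the letters and is not evidence of binding.

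The lists held between 21050 and 40883 nuclear peaks, and the longest was that of Aged Bleo 2. They were shorter on average in aged mice, with means of 28882 in Aged Sham and 31093 in Aged Bleo, against 35239 in Young Sham and 36699 in Young Bleo. Median fragments at a peak summit lay between 26 and 35. Background coverage, taken near the low end of the local background at the peaks of each list, lay between 1.02 and 1.78 fragments. The shortest list was Aged Bleo 4, in which 23 of the 63 regions carried a peak, whereas up to 53 did in the other samples. Of 10 endothelial marker promoters, between 7 and 10 carried a peak in each sample (Emcn in 7 of 18 samples, Tek in 15). Of 6 leukocyte marker promoters 0 carried a peak in any sample, Ptprc included. Foxj1 was called in every sample as the only one of 6 epithelial markers, and Pdgfra as the only one of 6 fibroblast and mural markers, with Epcam, Col1a1 and Col1a2 at 0. The percentile of the Foxj1 promoter was lower on average in both bleomycin groups, with 57.9 (36.9 to 68.6) in Young Sham, 44.7 (38.97 to 50.4) in Young Bleo, 57.3 (33.8 to 67.8) in Aged Sham and 39.5 (24.4 to 53.5) in Aged Bleo, while that of Pdgfra was between 12.9 and 15.2 in every group. What part Foxj1- or Pdgfra-open cells had in the results was not tested. The names of the lists carry a number that was read here as the sequencing lane, although no label says so. By this number, lane 6 held all Aged Bleo samples with Aged Sham 4, lane 8 held all Young Sham samples with Young Bleo 4, and lane 7 held the remaining samples. Lane and age can therefore not be told apart in the comparisons of aged mice with Young Sham. Within each age, treatment was also nearly split by lane. Only Young Bleo 4 and Aged Sham 4 shared a lane with the other treatment of their age.

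The 63 regions were mostly distal. Of these, 8 (12.7%) overlapped a promoter of their gene, taken as the window from 1000 bp before a TSS to 100 bp past it. Of all consensus regions 26.7% overlapped such a window of any RefSeq gene, so these shares are not counted alike. A further 35 were intronic, 4 lay in a UTR and 16 lay outside the gene. A peak was present in all 18 samples in 21 regions (33.3%, against 36.8% of all regions). Outside promoters, counted in the same unlike ways, a peak was present in all samples in 25.5%, against 21.4%. Median width was 487 bp, against 440 bp. Tgfbr3 had 13 regions, Ltbp1 11, Tgfbr2 9, Smad7 7, Smad2 6, Smad3 5, Tgfbr1 4, Tgfb2 3, Snai2 3 and Tgfb1 2. Strength was measured within each list by the percentile of a region's fold enrichment, which is the share of the 17432 regions called in every sample that had a lower fold enrichment in that list. By mean percentile, the Tgfbr1 promoter (88.4), Smad2 +116.5 kb (78.3) and Smad7 +38.4 kb (75.4) were the strongest, and the median of the 21 regions called in every sample was 42.0.

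**Figure D1:**
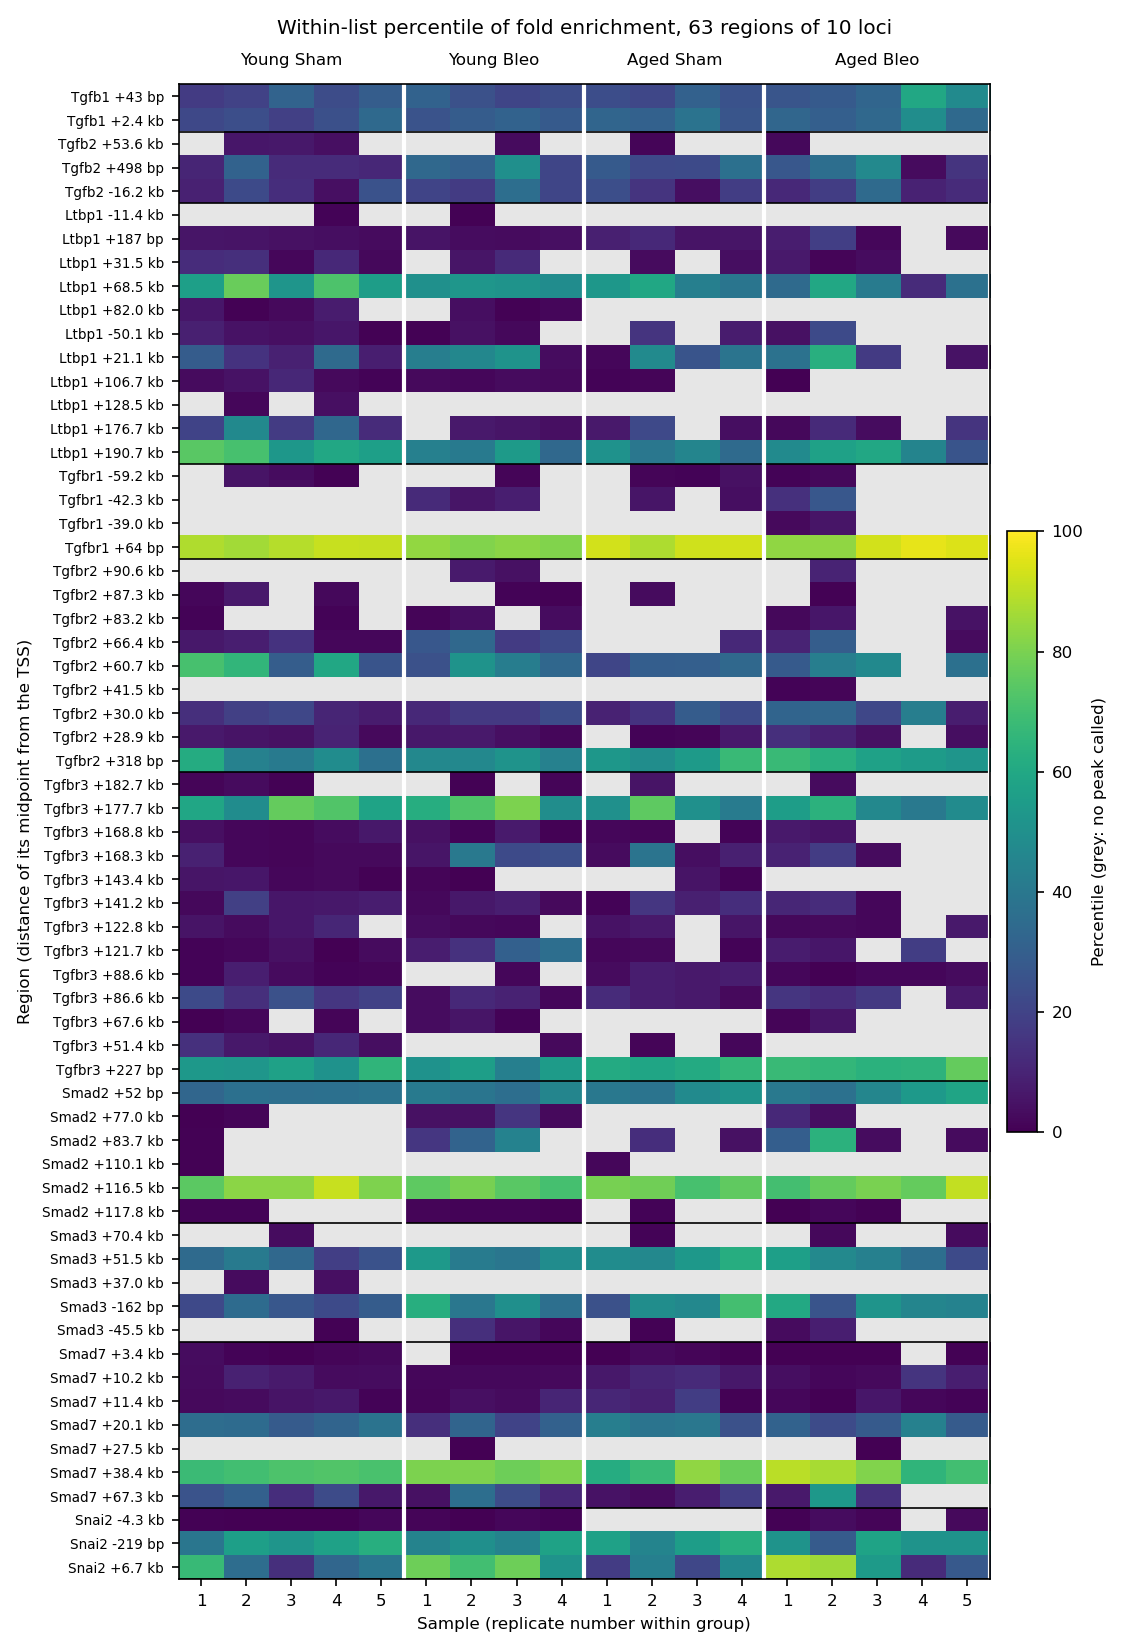
Percentile of fold enrichment of each of the 63 regions (rows, by gene and distance from the TSS) in each of the 18 samples (columns, by group and replicate number), on a colour scale from 0 to 100, with grey where no peak was called. The Tgfbr1 promoter (+64 bp) and Smad2 +116.5 kb stayed bright in every sample, whereas most distal regions were dark or grey, and grey was most frequent in Aged Bleo 4.

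The presence of peaks addressed whether these loci were opened or closed by age, by injury or by both. A few regions of the receptors, of Ltbp1 and of Snai2 were called less often than in Young Sham, and 1 region, upstream of Tgfbr1, was called more often. The samples with and without a peak were compared by Fisher's exact test, two-sided throughout, at an unadjusted p of 0.05, and after Benjamini-Hochberg adjustment 0 of the 47338 regions passed in any of the 6 comparisons (lowest adjusted p 0.162, in aged vs young). In Aged Sham vs Young Sham, 3 regions (Tgfbr2 +66.4 kb, Ltbp1 +82.0 kb and Snai2 -4.3 kb) were called less often and 0 more often, where 4.9% and 0.264% of all regions were. In Young Bleo vs Young Sham, Tgfbr1 -42.3 kb was called more often, and Tgfbr3 +88.6 kb and +51.4 kb less often, which is 1 region up and 2 down beside 3.98% and 1.96% of all regions. In Aged Bleo vs Young Sham, 4 were called less often (Tgfbr3 +143.4 kb and +51.4 kb, Ltbp1 +82.0 kb and +106.7 kb) and 0 more often, where 3.01% and 0.201% of all regions were. These 3 comparisons share the Young Sham samples.

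Within aged mice, Snai2 -4.3 kb was called more often in Aged Bleo than in Aged Sham and 0 regions less often, beside 0.475% and 0.41% of all regions. Between all bleomycin-treated and all sham mice, Tgfbr3 +51.4 kb was called less often and 0 regions more often, beside 1.23% and 2.17%. Between all aged and all young mice, 4 regions were called less often (Tgfbr2 +66.4 kb, Ltbp1 +82.0 kb, Ltbp1 +106.7 kb and Snai2 -4.3 kb) and 0 more often, beside 4.87% and 0.127%. Among the 63 regions, 4.76%, 4.76% and 6.35% were called in the comparisons of Aged Sham, Young Bleo and Aged Bleo with Young Sham and 6.35% in aged vs young. In Aged Sham the share was close to that of all regions. The smallest p that 5 against 4 or 5 against 5 samples allow is 0.00794 (exact), and it was reached by Snai2 -4.3 kb in Aged Sham and by both Tgfbr3 regions in Aged Bleo. When each list was limited to its 21050 peaks with the highest -log10 p, 39 member regions remained and 0 of them were called in Aged Sham vs Young Sham and 0 in aged vs young, beside 2.92% and 1.86% of all regions. None of the presence calls listed above for all peaks passed with these shorter lists. In them, Tgfbr3 +51.4 kb and +143.4 kb and Ltbp1 +82.0 kb and +106.7 kb were no longer consensus regions.

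**Figure D2:**
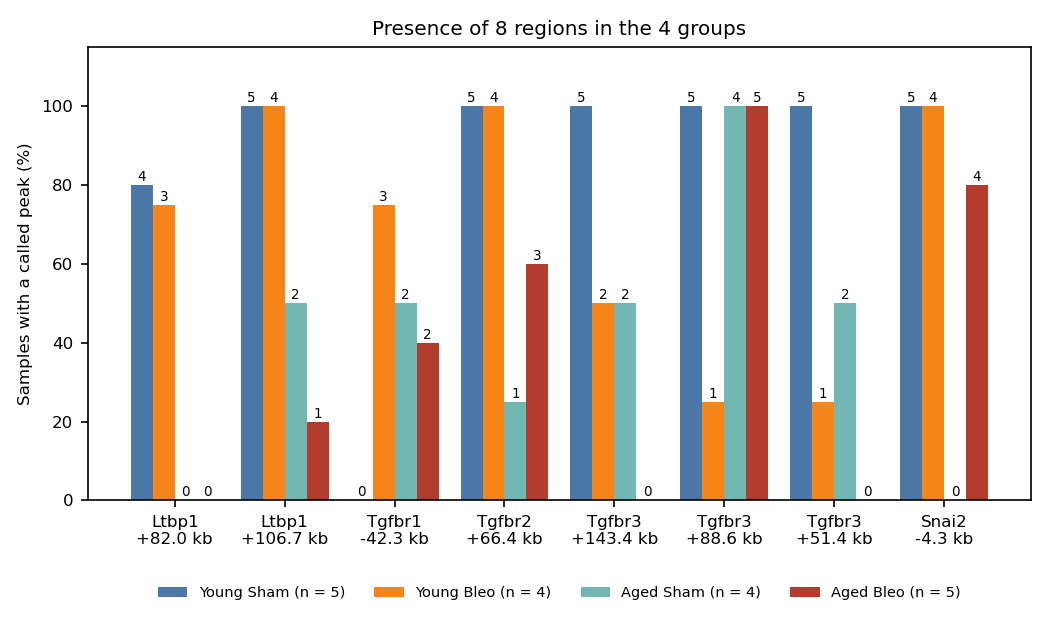
Percentage of samples with a called peak (bar height, with the number of samples above each bar) in the 8 regions called in any comparison, in Young Sham (n = 5), Young Bleo (n = 4), Aged Sham (n = 4) and Aged Bleo (n = 5). Ltbp1 +82.0 kb was absent from both aged groups, Tgfbr3 +143.4 kb and +51.4 kb were absent from Aged Bleo, and Snai2 -4.3 kb was absent from Aged Sham alone.

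Strength was compared with limma over the 17432 regions called in every sample, which include 21 of the 63. Against Young Sham, the Tgfbr3 promoter and Tgfb1 +2.4 kb ranked higher in Aged Bleo, and Ltbp1 +68.5 kb ranked lower, which is 2 regions up and 1 down of 21 at a limma adjusted p below 0.05, where 5.74% and 4.81% of all 17432 were up and down. In aged vs young, the Tgfbr3 promoter ranked higher and 0 regions lower, beside 2.07% and 1.87%. In the other contrasts limma called 0 of the 21: Aged Sham vs Young Sham (1.2% of all regions called), Young Bleo vs Young Sham (2.75%), Aged Bleo vs Aged Sham (0.344%), bleomycin vs sham (6.16%) and the interaction of age and treatment (0.00574%). At an unadjusted limma p below 0.05 these counts were 3, 6, 2, 5 and 3 of 21, where 15.9%, 17.4%, 15.9%, 22.7% and 9.1% of all regions passed. The median difference of the 21 regions was 7.82 points in Aged Bleo vs Young Sham, against 0.336 over all regions, and 3.99 points in aged vs young, against 0.389. With lane as a covariate limma called 0 of the 21 in every contrast, as it did 0 of all 17432 regions.

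The third measure was the percentage of a gene's regions that carried a peak in each sample, compared with limma over the 3307 genes with at least 5 regions, among them Tgfbr2, Tgfbr3, Smad2, Smad3, Smad7 and Ltbp1. Ltbp1 alone of these 6 passed an adjusted p of 0.05, with a smaller share in aged than in young mice, in a contrast in which 17.5% of all genes passed. In the other contrasts limma called 0 of the 6, beside 1.6% of genes in Aged Sham vs Young Sham, 0.242% in Young Bleo vs Young Sham, 2.72% in Aged Bleo vs Young Sham, 0.0% in Aged Bleo vs Aged Sham and 0.0907% in bleomycin vs sham. At an unadjusted limma p below 0.05 these contrasts gave 1, 0, 2, 0 and 2 of the 6, where 23.5%, 12%, 21.5%, 3.75% and 13.6% of all genes passed.

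The ligand Tgfb1 was covered by 2 regions, both called in all 18 samples and both well filled. Its promoter (+43 bp, chr7:25686678-25687411) held between 85 and 206 fragments at the summit, and Tgfb1 +2.4 kb (intron, chr7:25689075-25689640) between 97 and 223. At +2.4 kb the percentile was 21.5, 23.8, 18.8, 24.4 and 34.3 in Young Sham and 33.2, 30.2, 33.8, 49.0 and 34.1 in Aged Bleo. It was 25.4, 28.9, 31.5 and 28.2 in Young Bleo and 32.8, 31.2, 38.2 and 26.3 in Aged Sham. Young Sham 5 lay within the range of Aged Bleo, and the other Young Sham samples lay below it. The difference between Aged Bleo and Young Sham was 11.5 points (SE 3.55, limma adjusted p = 0.0492). The call lay at the threshold. It was lost in 14 of 18 limma fits that left out 1 sample (adjusted p up to 0.113), among them 6 without a Young Bleo or Aged Sham sample, in which the difference stayed at 11.5 points, and without Aged Bleo 4, the highest sample, the difference was 8.26 points (adjusted p = 0.0939). It was also lost when ranked among all peaks (2.07 points, adjusted p = 0.611), on quantile-normalized log2 fold enrichment (adjusted p = 0.052) and with all consensus regions in the fit (adjusted p = 0.0753).

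The Tgfb1 promoter ranked at 24.5 ± 6.24 (Young Sham, SD, n = 5), 25.2 ± 4.56 (Young Bleo, SD, n = 4), 25.3 ± 4.24 (Aged Sham, SD, n = 4) and 39.0 ± 14.4 (Aged Bleo, SD, n = 5). The Aged Bleo values were 26.2, 28.2, 32.8, 59.9 and 47.9, so that samples 4 and 5 stood above all others and samples 1 and 2 did not. The difference from Young Sham was 14.5 points (SE 5.37, limma adjusted p = 0.0928). Aged Bleo differed from Aged Sham by 13.7 points (SE 5.69, limma adjusted p = 0.249). Bleomycin-treated mice differed from sham mice by 7.23 points (SE 4.03, limma adjusted p = 0.300). Neither passed. Both passed only when ranked among all peaks of the list, a scale that moves with the length of the list. The promoter was then higher in Aged Bleo than in Aged Sham by 11.5 points (SE 2.13, limma adjusted p = 0.0208) and higher in bleomycin-treated than in sham mice by 6.43 points (limma adjusted p = 0.0289). On that scale 1.16% and 3.52% of all regions were called in these contrasts.

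Tgfb2 encodes the ligand that depends most on TGFBR3. It had no region over its promoter window, and its most proximal region lay in the 5' UTR (+498 bp, chr1:186705150-186705831), called in all 18 samples with 11 to 87 fragments. Its percentile was 10.5, 31.3, 12.3, 12.4 and 10.9 in Young Sham and 33.7, 30.9, 49.9 and 20.7 in Young Bleo. Except for Young Sham 2, Young Bleo samples lay above Young Sham, by 18.3 points on average (SE 7.74), but the difference did not pass (limma adjusted p = 0.233). Aged Sham averaged 27.4 ± 6.96 (SD, n = 4) and Aged Bleo 25.6 ± 17.3 (SD, n = 5). Tgfb2 -16.2 kb (chr1:186721918-186722385) was also present in every sample, at 17.6 on average, and Tgfb2 +53.6 kb (intron) in 6 samples, 3 of them Young Sham.

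The latent ligand carrier Ltbp1 had regions along all of its gene body of 387.0 kb on chromosome 17. Of its 9 intronic regions, 2 (+82.0 kb and +106.7 kb) were called less often in aged than in young mice at an unadjusted p. In that direction 4.87% of all regions were called, and the lists of aged mice were shorter on average. Of the 2 Ltbp1 regions in the strength fit (+68.5 kb and +190.7 kb), 0 ranked differently between the ages at a limma adjusted p below 0.05. With equal list lengths 0 Ltbp1 regions were called in aged vs young, but Ltbp1 +176.7 kb was called less often than in Young Sham in Young Bleo (0 of 4 against 5 of 5 samples, exact p = 0.00794), in Aged Bleo (1 of 5, exact p = 0.0476) and in bleomycin vs sham (1 of 9 against 7 of 9, exact p = 0.0152). The promoter was also called less often in bleomycin vs sham (3 of 9 against 8 of 9, exact p = 0.0498). With all peaks, Ltbp1 +176.7 kb had percentiles from 12.4 to 47.6 in Young Sham and of at most 6.80 in Young Bleo, and it passed in 0 comparisons. The promoter (+187 bp, chr17:75004827-75006605) was called in 17 of 18 samples, all but Aged Bleo 4, at 5.56 on average with 0 where it was not called. The strongest regions were Ltbp1 +68.5 kb and +190.7 kb, the latter at chr17:75369223-75369761, both called in every sample. The percentile of Ltbp1 +68.5 kb (chr17:75073768-75074295) was 56.6, 77.1, 52.3, 72.1 and 55.6 in Young Sham and 50.2, 52.4, 51.2 and 48.5 in Young Bleo. It was 52.9, 59.7, 43.1 and 38.8 in Aged Sham and 34.7, 59.8, 41.6, 12.2 and 37.2 in Aged Bleo. Young Sham lay above all other samples except Aged Sham 1 and 2, Aged Bleo 2 and Young Bleo 2, and Aged Bleo was the lowest and widest group. Summit fragments were 46 to 84 in Young Sham and 12 to 51 in Aged Bleo. These counts are not corrected for depth. Background coverage averaged 1.56 in Young Sham and 1.21 in Aged Bleo, and its part in the counts was not tested.

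Ltbp1 +68.5 kb differed by -25.6 points between Aged Bleo and Young Sham (SE 7.01, limma adjusted p = 0.0302). Ranked among all peaks it differed by -22.2 points (limma adjusted p = 0.0908), and with all consensus regions in the fit the adjusted p was 0.0571. Without Young Sham 2, Young Sham 4, Aged Bleo 1, Aged Bleo 4 or Aged Bleo 5 the adjusted p was 0.0805, 0.0736, 0.0534, 0.0581 and 0.0558, and without Aged Bleo 4 the difference was -19.4 points. Ltbp1 +190.7 kb averaged 62.9 ± 9.24 (Young Sham, SD, n = 5), 43.2 ± 8.52 (Young Bleo, SD, n = 4), 42.7 ± 7.06 (Aged Sham, SD, n = 4) and 47.1 ± 13.4 (Aged Bleo, SD, n = 5). Its lowest Young Sham value was 53.0 and its highest Aged Sham value 51.04. The difference of Aged Sham from Young Sham was -20.2 points (SE 6.44, limma adjusted p = 0.131) and that of Young Bleo -19.7 points (SE 6.44, limma adjusted p = 0.116).

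Ltbp1 +82.0 kb (chr17:75087364-75087782) was called in Young Sham 1 to 4 and Young Bleo 2 to 4 and in 0 of 9 aged samples. Fragments at the summit were 18, 12, 15 and 20 in Young Sham and 16, 12 and 14 in Young Bleo, below the median peak summit of every list. Fisher's exact test gave p = 0.0476 for Aged Sham vs Young Sham, p = 0.0476 for Aged Bleo vs Young Sham and p = 0.00226 for aged vs young (adjusted 0.414). Leaving out 1 sample, the call in Aged Sham was lost in 8 of 9 tests (exact p up to 0.143) and that in Aged Bleo in 0 of 10. With equal list lengths the region was not a consensus region. In lane 7 it was called in 2 of 3 Young Bleo and 0 of 3 Aged Sham samples.

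Ltbp1 +106.7 kb (chr17:75285065-75285973), the region with the SMAD palindrome, was called in all 9 young samples, in Aged Sham 1 and 2 and in Aged Bleo 1. Its percentile was 2.95, 4.88, 11.3, 2.43 and 1.02 in Young Sham and 2.62, 1.57, 2.90 and 2.39 in Young Bleo. In the aged samples with a peak it was 0.969, 1.30 and 0.356, below 9, 8 and 9 of the young samples, and summit fragments were 9 to 11 there and 11 to 22 in young samples. Fisher's exact test gave p = 0.0476 for Aged Bleo vs Young Sham and p = 0.00905 for aged vs young (adjusted 0.624), and with equal list lengths it was not a consensus region. In lane 7, which holds both ages, it was called in 3 of 3 Young Bleo and 2 of 3 Aged Sham samples.

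Of the 11 Ltbp1 regions, 9, 10, 9, 11 and 8 were called in Young Sham and 6, 10, 9 and 7 in Young Bleo. In Aged Sham 6, 8, 4 and 7 were called, and in Aged Bleo 8, 7, 6, 2 and 5. No aged sample reached more than 8, although Young Bleo 1 and 4 were as low as aged samples. The share differed by -25.2 percentage points between aged and young mice (SE 7.53, limma adjusted p = 0.0304), in a contrast in which the median gene differed by -13.5 points. The call was lost without Young Sham 2, Young Sham 4, Young Bleo 2, Young Bleo 3, Aged Sham 1, Aged Sham 3 or Aged Bleo 5, with adjusted p between 0.0554 and 0.078. After subtraction of the share of all consensus regions called in the same sample, a choice made after seeing the data, the difference was -12.75 points (limma adjusted p = 0.134), whereas in Aged Bleo vs Young Sham it was -25.5 points and passed (limma adjusted p = 0.0222), against -34.5 points without the subtraction (limma adjusted p = 0.0627). With the same number of peaks in every list it was -2.14 points (adjusted p = 0.907), while the share then differed by -31.4 points between Young Bleo and Young Sham (limma adjusted p = 0.0395) and by -23.6 points between bleomycin-treated and sham mice (adjusted p = 0.0328).

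**Figure D3:**
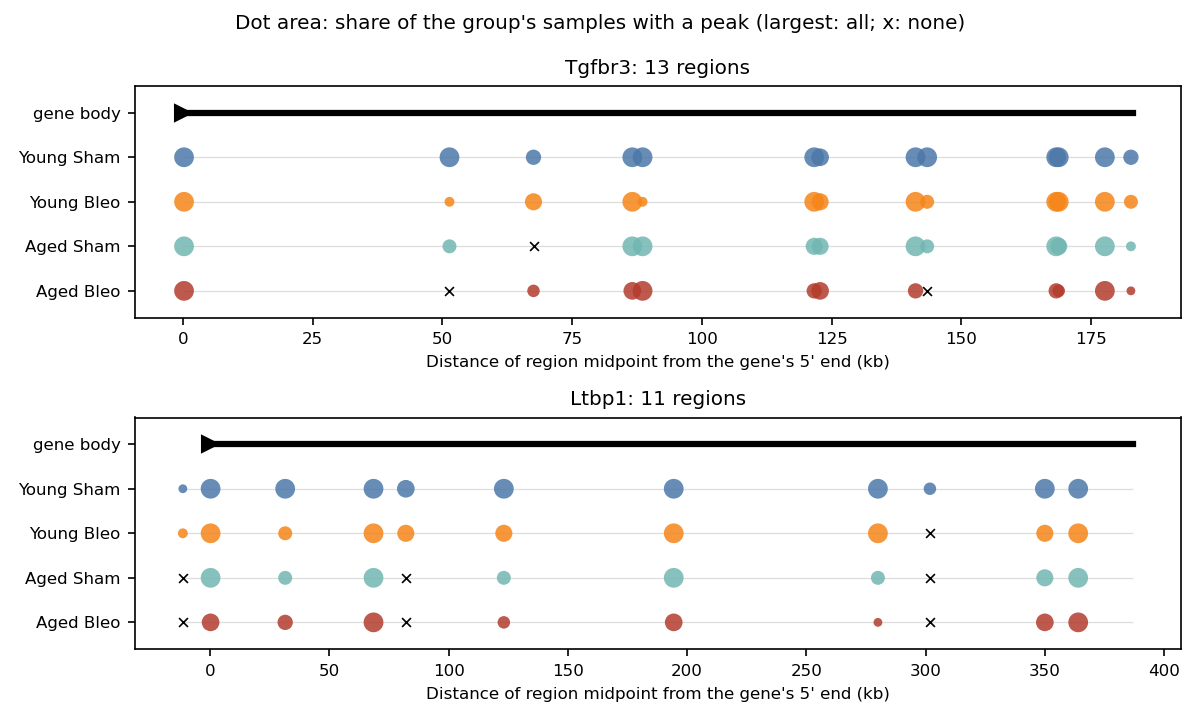
Position and presence of the 13 Tgfbr3 and 11 Ltbp1 regions, by distance of their midpoints from the gene's 5' end in kb, with the gene body as a bar and a row for each group. Dot area is the share of the group's samples with a peak and a cross marks 0. Young Sham dots are full along most of both genes, and crosses appear in Aged Bleo at the Tgfbr3 regions +51.4 kb and +143.4 kb and in both aged groups at the Ltbp1 region +82.0 kb.

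The type I receptor Tgfbr1 had the strongest region of all 10 loci, and the distal regions upstream of it were few and weak. The promoter (+64 bp, chr4:47352794-47353777) was called in every sample with 335 to 650 fragments at the summit. Its percentile was 89.1 ± 2.25 (Young Sham, SD, n = 5), 82.0 ± 1.28 (Young Bleo, SD, n = 4), 91.6 ± 2.64 (Aged Sham, SD, n = 4) and 90.3 ± 6.32 (Aged Bleo, SD, n = 5). The Young Bleo values, 83.6, 81.1, 82.5 and 80.9, were all below the lowest Young Sham value of 86.0. The difference of -7.04 points (SE 2.73) did not pass (limma adjusted p = 0.190). Aged Bleo was split, with 83.6 and 83.3 in samples 1 and 2 and 93.1, 96.5 and 94.8 in samples 3 to 5.

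Tgfbr1 -42.3 kb, upstream of the gene, was called in 0 of 5 Young Sham samples. Peaks were present in Young Bleo 1, 2 and 3 with 22, 21 and 23 fragments, in Aged Sham 2 and 4 with 15 each, and in Aged Bleo 1 and 2 with 25 and 38. Its percentile reached 27.3 in Aged Bleo 2 and at most 13.9 elsewhere. Young Bleo differed from Young Sham by Fisher's exact test (p = 0.0476, adjusted 0.801), and the call was lost when any of the other samples than Young Bleo 4 was left out (exact p up to 0.143). That outcome was fixed by the numbers of samples. In lane 8, the lane that holds both groups, the region was called neither in Young Sham nor in Young Bleo 4. Tgfbr1 -59.2 kb was called in 9 samples of all groups, and Tgfbr1 -39.0 kb in Aged Bleo 1 and 2.

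The type II receptor Tgfbr2 carried 9 regions, 8 of them in its gene of 87.7 kb on chromosome 9, 6 of these intronic, and 1 downstream of the gene. Its promoter (+318 bp, chr9:116174501-116175588) was called in every sample, with 34 to 107 fragments and a percentile of 46.5 ± 9.53 (Young Sham, SD, n = 5), 47.2 ± 3.06 (Young Bleo, SD, n = 4), 56.2 ± 8.04 (Aged Sham, SD, n = 4) and 59.0 ± 6.40 (Aged Bleo, SD, n = 5). The difference between aged and young mice was 10.7 points (SE 3.36, limma adjusted p = 0.0771). Tgfbr2 +60.7 kb (chr9:116114378-116114907) was the strongest distal region, called in 17 samples and averaging 37.4 with 0 where it was not called.

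Tgfbr2 +66.4 kb, in an intron, was called in all young samples but in Aged Sham only in sample 4. Its percentile was 6.47, 8.32, 14.5, 1.80 and 1.65 in Young Sham and 27.1, 33.9, 17.3 and 21.6 in Young Bleo. The single Aged Sham value was 11.3, and the Aged Bleo values were 9.99, 29.4 and 2.89 in samples 1, 2 and 5. All 4 Young Bleo values were above all 5 Young Sham values, with 27 to 34 fragments at the summit against 12 to 24. Fisher's exact test gave p = 0.0476 for Aged Sham vs Young Sham (adjusted 0.922) and p = 0.0294 for aged vs young (adjusted 0.793). The former was lost in 8 of 9 tests that left out 1 sample (exact p up to 0.143), and the latter in 0 of 18. Both outcomes were fixed by the numbers of samples. The 3 Aged Sham samples without a peak were in lane 7, where 3 of 3 Young Bleo samples had one. When each list was limited to 21050 peaks, the region was called in 4 of 4 Young Bleo and 1 of 5 Young Sham samples (Fisher's exact test, p = 0.0476), and the difference between Aged Sham and Young Sham changed direction to +5.0 percentage points (exact p = 1.0).

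The co-receptor Tgfbr3 had the most regions, 13, and 11 of them were intronic in a gene of 183.1 kb on chromosome 5. Its promoter ranked higher in aged than in young mice. Of its intronic regions, 2 (+51.4 kb and +143.4 kb) were called in every Young Sham and in 0 Aged Bleo samples, although each was also called in 2 of 4 Aged Sham samples. Over all regions 3.01% were called less often in Aged Bleo than in Young Sham, and by presence 0 Tgfbr3 regions passed in aged vs young. The promoter (+227 bp, chr5:107288907-107289896) was called in every sample, with a percentile of 53.2, 52.4, 57.2, 51.1 and 65.3 in Young Sham and 51.1, 56.1, 43.3 and 54.7 in Young Bleo. It was 61.3, 58.9, 61.0 and 66.4 in Aged Sham and 67.7, 66.1, 63.9, 64.8 and 76.5 in Aged Bleo. All aged values were above all young values except that of Young Sham 5. Summit fragments did not follow, with 110 to 160 in young and 60 to 153 in aged samples. Background coverage averaged 1.16 in Aged Sham and 1.21 in Aged Bleo, against 1.56 in Young Sham and 1.65 in Young Bleo, and its part in the percentiles was not tested.

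The Tgfbr3 promoter was higher in aged than in young mice by 11.3 points (SE 2.43, limma adjusted p = 0.0220) and in Aged Bleo than in Young Sham by 11.9 points (SE 3.25, limma adjusted p = 0.0296). The former call held in all 18 fits without 1 sample (adjusted p up to 0.0465). The latter was lost without Young Sham 1, Young Sham 2, Young Sham 4 or Aged Bleo 5, with adjusted p of 0.0613, 0.0738, 0.0734 and 0.0702. Ranked among all peaks of its list, a scale that moves with the length of the list, the promoter differed between aged and young by 1.695 points (limma adjusted p = 0.553). Within aged and within young mice the treatment made no difference that passed, with Aged Bleo above Aged Sham by 5.90 points (SE 3.44, limma adjusted p = 0.427) and Young Bleo at -4.56 points from Young Sham (SE 3.44, limma adjusted p = 0.553).

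**Figure D4:**
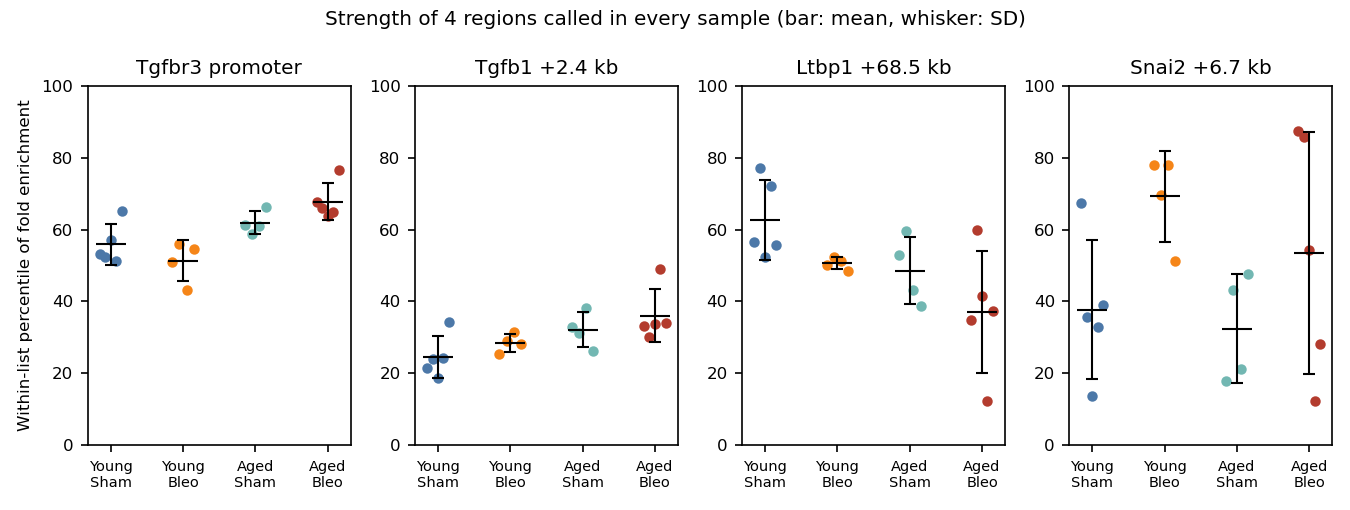
Within-list percentile of fold enrichment of 4 regions called in every sample, with a point for each sample, a bar at the group mean and whiskers of 1 SD. The aged samples of the Tgfbr3 promoter lie between 58.9 and 76.5 and the young ones between 43.3 and 65.3. Ltbp1 +68.5 kb is highest in Young Sham, and Snai2 +6.7 kb spans 12.2 to 87.6 in Aged Bleo.

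Among the intronic regions of Tgfbr3, +51.4 kb (chr5:107238022-107238487) was called in 5 of 5 Young Sham samples, in Young Bleo 4, in Aged Sham 2 and 4 and in 0 of 5 Aged Bleo samples. Its percentile was 13.97, 6.41, 4.85, 11.1 and 3.68 in Young Sham, and 2.39, 1.30 and 1.80 in the other samples with a peak. All values elsewhere were below the lowest of Young Sham, with 11 to 15 summit fragments against 14 to 26. Fisher's exact test gave p = 0.0476 for Young Bleo vs Young Sham (adjusted 0.801), p = 0.00794 for Aged Bleo vs Young Sham (adjusted 1) and p = 0.0152 for bleomycin vs sham, with 1 of 9 against 7 of 9 samples (adjusted 1). With equal list lengths it was not a consensus region. Within lane 8, 5 of 5 Young Sham samples and the single Young Bleo sample had a peak, and within lane 6 the single Aged Sham sample had one and 0 of 5 Aged Bleo samples did. With 0 entered where no peak was called, limma gave -8.01 points for Aged Bleo vs Young Sham (SE 1.51, adjusted p = 0.00903) and -7.41 points for Young Bleo vs Young Sham (SE 1.60, adjusted p = 0.0230), on a scale that the uncalled samples set in part.

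Tgfbr3 +143.4 kb (chr5:107146017-107146414) was called in all 5 Young Sham samples, in Young Bleo 1 and 2, in Aged Sham 3 and 4 and in 0 of 5 Aged Bleo samples (Fisher's exact test of Aged Bleo vs Young Sham, p = 0.00794), and with equal list lengths it was not a consensus region. Fragments at its summit were 26, 30, 16, 23 and 12 in Young Sham, 13 and 10 in Young Bleo and 15 and 13 in Aged Sham. Tgfbr3 +88.6 kb (chr5:107200842-107201262) differed in its pattern, being called in 5 Young Sham, 4 Aged Sham and 5 Aged Bleo samples but only in Young Bleo 3 (Fisher's exact test of Young Bleo vs Young Sham, p = 0.0476). Its percentile did not exceed 8.22 in any sample. The call was lost when any sample but Young Bleo 3 was left out (exact p up to 0.143), and so was that of Tgfbr3 +51.4 kb in Young Bleo for any sample but Young Bleo 4. Here too the numbers of samples fixed the outcome.

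The other intronic Tgfbr3 regions differed in direction between Young Bleo and Young Sham. At Tgfbr3 +86.6 kb the percentile was between 13.4 and 24.96 in Young Sham and between 1.78 and 11.4 in Young Bleo, without overlap. Tgfbr3 +121.7 kb (chr5:107167697-107168253) ranked at 1.09, 1.92, 4.47, 0.384 and 2.78 in Young Sham and at 7.92, 14.2, 30.6 and 36.1 in Young Bleo, with 12 to 18 summit fragments against 23 to 42. Young Bleo lay above every Young Sham sample, while Aged Bleo had values of 7.73, 5.995 and 18.3 in samples 1, 2 and 4 and no peak in samples 3 and 5. With 0 entered where no peak was called, the difference in young mice was 20.1 points (SE 4.82, limma adjusted p = 0.0367). At Tgfbr3 +168.3 kb (chr5:107121118-107121583) 3 of 4 Young Bleo samples, at 40.6, 22.4 and 23.96, likewise lay above Young Sham, whose highest value was 9.27. So did Aged Sham 2, at 38.5, and Aged Bleo 1 and 2, at 9.40 and 17.8. The strongest distal region, Tgfbr3 +177.7 kb (chr5:107111737-107112217), was called in every sample at 58.5 on average. With equal list lengths, +86.6 kb was called in 0 of 4 Young Bleo and 5 of 5 Young Sham samples (Fisher's exact test, p = 0.00794). Both +121.7 kb and +168.3 kb were called in 3 of 4 against 0 of 5 (exact p = 0.0476). There 3.19% of all regions were called less often and 3.66% more often. In bleomycin vs sham, +141.2 kb was called in 0 of 9 against 6 of 9 samples (exact p = 0.00905), beside 2.43% of all regions called less often.

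Of the 13 Tgfbr3 regions, 13, 13, 12, 12 and 10 were called in Young Sham and 10, 11, 10 and 9 in Young Bleo. In Aged Sham 9, 11, 7 and 11 were called, and in Aged Bleo 10, 11, 7, 4 and 5. The share in Aged Bleo differed from that in Young Sham by -35.4 percentage points (SE 9.66, limma adjusted p = 0.0505), where the median gene differed by -10 points. Between bleomycin-treated and sham mice it differed by -15.8 points (SE 7.25, limma adjusted p = 0.336), where the median gene differed by 3.5 points. After subtraction of the share of all consensus regions called in the same sample, a choice made after seeing the data, the differences were -26.4 points in Aged Bleo vs Young Sham (limma adjusted p = 0.00885) and -19.2 points in bleomycin vs sham (limma adjusted p = 0.00735). More of all genes passed after this subtraction as well, and their shares are given in the closing section on processing. With the same number of peaks in every list they were -11.4 points (adjusted p = 0.373) and -9.29 points (adjusted p = 0.309).

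**Figure D5:**
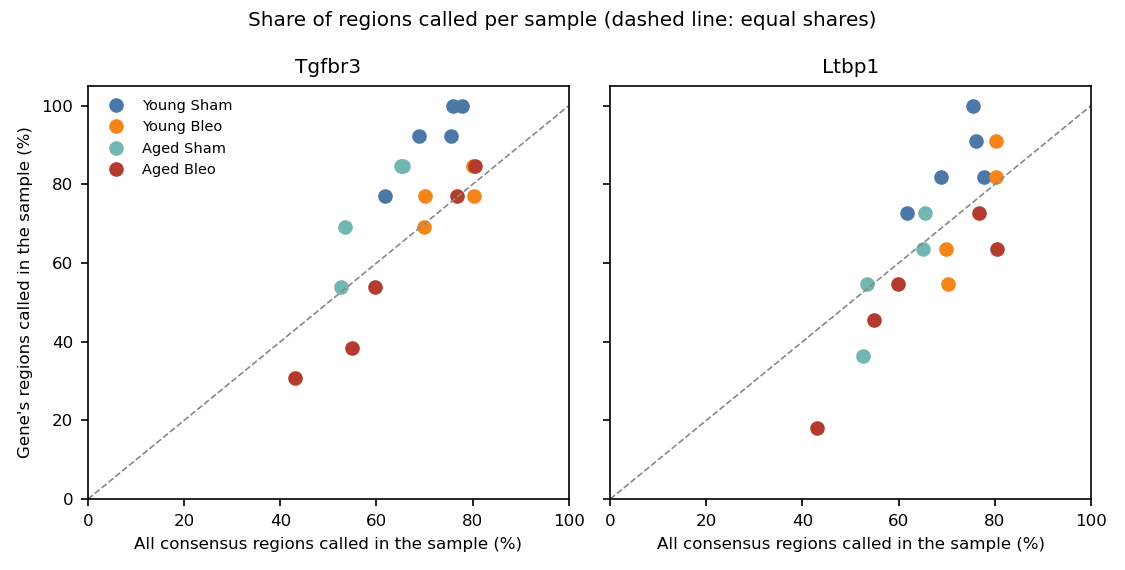
Percentage of the regions of Tgfbr3 (left) and Ltbp1 (right) called in each sample against the percentage of all consensus regions called in the same sample, with a dashed line where both are equal and a colour for each group. All 5 Young Sham samples lie above the line in both panels, Aged Sham samples lie above it for Tgfbr3, and Aged Bleo 4, with 43.0% of all regions called, is the lowest point in both.

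The signal transducers Smad2 and Smad3 had regions called in every sample at their promoters and at 1 distal site each. The Smad2 promoter (+52 bp) held 123 to 304 fragments and ranked at 36.2 ± 2.00 (Young Sham, SD, n = 5), 40.2 ± 3.88 (Young Bleo, SD, n = 4), 44.5 ± 6.13 (Aged Sham, SD, n = 4) and 47.2 ± 8.85 (Aged Bleo, SD, n = 5). The difference between Aged Bleo and Young Sham was 10.97 points (SE 3.68, limma adjusted p = 0.0676). Smad2 +116.5 kb, downstream of the gene, averaged between 74.9 in Young Bleo and 82.5 in Young Sham. Smad2 +83.7 kb was called in 1 of 5 Young Sham, 3 of 4 Young Bleo, 2 of 4 Aged Sham and 4 of 5 Aged Bleo samples, with percentiles of 15.95, 31.7 and 44.5 in Young Bleo and up to 64.4 in Aged Bleo, in sample 2, against 0.402 in the single Young Sham sample. With all peaks this did not pass in any comparison, while with each list limited to 21050 peaks it was present in 3 of 4 Young Bleo and 0 of 5 Young Sham samples (Fisher's exact test, p = 0.0476). At a -log10 q or a fold enrichment of at least 5 it also passed in Young Bleo, with the same counts. It then passed in Aged Bleo vs Young Sham too, with 4 of 5 against 0 of 5 samples.

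Smad3 +51.5 kb (intron, chr9:63706230-63706832) and the Smad3 promoter (-162 bp, chr9:63757759-63758552) were lowest in Young Sham. At +51.5 kb the percentile was 34.5, 40.9, 33.9, 18.6 and 25.4 in Young Sham and 48.7, 46.7, 53.1 and 62.3 in Aged Sham. It was 54.0, 41.5, 39.3 and 48.5 in Young Bleo and 56.5, 47.1, 43.7, 36.3 and 22.6 in Aged Bleo. All Aged Sham values were above all Young Sham values, and the difference of 22.05 points (SE 5.99) did not pass the adjusted threshold (limma adjusted p = 0.0775), although it did without Aged Bleo 5 (adjusted p = 0.0467). The promoter ranked at 27.3 ± 5.24 (Young Sham, SD, n = 5), 47.3 ± 11.7 (Young Bleo, SD, n = 4), 47.7 ± 18.5 (Aged Sham, SD, n = 4) and 45.6 ± 12.7 (Aged Bleo, SD, n = 5). Differences from Young Sham were 20 points in Young Bleo, 20.4 in Aged Sham (SE 7.91 for both) and 18.4 in Aged Bleo (SE 7.46), with limma adjusted p of 0.200, 0.218 and 0.123.

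The inhibitor Smad7 had 7 regions but none over its promoter window. Its strongest region was Smad7 +38.4 kb, downstream of the gene, with 39 to 167 fragments in all samples. Its percentile was 68.1, 69.6, 72.3, 72.7 and 71.1 in Young Sham and 80.5, 80.6, 77.8 and 80.5 in Young Bleo. Young Bleo values were all above Young Sham values, whereas Aged Sham, at 61.9 to 83.3, and Aged Bleo, at 65.4 to 89.6, overlapped. Between bleomycin-treated and sham mice the difference was 7.54 points (SE 3.34, limma adjusted p = 0.190). Within the gene, Smad7 +20.1 kb averaged 31.5, while Smad7 +10.2 kb and +11.4 kb ranked at 5.61 and 4.73 in spite of medians of 70 and 63 fragments at the summit. Smad7 +3.4 kb, with 24 to 92 fragments, was called in 16 samples at percentiles of at most 3.24.

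Snai2, a short gene of 3.5 kb on chromosome 16, had 3 regions, and the one upstream of it had no called peak in any Aged Sham sample. The promoter (-219 bp, chr16:14705198-14706068) was called in every sample with 45 to 216 fragments and averaged between 48.1 in Aged Bleo and 55.2 in Aged Sham. Snai2 -4.3 kb (chr16:14701401-14701689) was called in 5 of 5 Young Sham, 4 of 4 Young Bleo, 0 of 4 Aged Sham and 4 of 5 Aged Bleo samples. Its summit held 48, 40, 40, 41 and 39 fragments in Young Sham, 60, 51, 71 and 62 in Young Bleo and 47, 57, 38 and 27 in Aged Bleo 1, 2, 3 and 5. Each of these counts was above the median summit of its own list, yet the percentile did not exceed 3.30 in any sample.

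Fisher's exact test gave p = 0.00794 for Snai2 -4.3 kb in Aged Sham vs Young Sham (adjusted 0.786), the smallest p that 4 against 5 samples allow, and the difference held when any sample was left out (exact p up to 0.0286). It gave p = 0.0476 for Aged Bleo vs Aged Sham, lost when any sample but Aged Bleo 4 was left out (exact p = 0.143), and p = 0.0294 for aged vs young. What leaving out a sample did to these calls was fixed by the numbers of samples. Lane 7 held both ages, with a peak in 3 of 3 Young Bleo and 0 of 3 Aged Sham samples, and in lane 6 the region was called in 0 of 1 Aged Sham and 4 of 5 Aged Bleo samples. At a fold enrichment of at least 5 it no longer passed in Aged Sham vs Young Sham (exact p = 0.444), nor did it with equal list lengths (exact p = 1.0). The region then had a peak in 1 of 5 Young Sham, 3 of 4 Young Bleo, 0 of 4 Aged Sham and 3 of 5 Aged Bleo samples, and passed in bleomycin vs sham instead (6 of 9 against 1 of 9 samples, exact p = 0.0498). No value of coverage was given where no peak was called, so a region just below the threshold cannot be told from a closed one.

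Snai2 +6.7 kb (chr16:14712275-14712749), downstream of the gene, was called in every sample. Its percentile was 67.3, 35.6, 13.7, 32.9 and 39.1 in Young Sham and 78.1, 69.6, 77.9 and 51.3 in Young Bleo. In Aged Sham it was 17.8, 43.1, 21.2 and 47.6, and in Aged Bleo 87.6, 85.7, 54.3, 12.2 and 28.1. Apart from Young Sham 1, Young Bleo lay above Young Sham, while Aged Bleo held both the highest and the lowest values of the 18 samples. The difference between bleomycin-treated and sham mice was 26.3 points (SE 10.1, limma adjusted p = 0.130), and it passed without Aged Bleo 4 (31.5 points, adjusted p = 0.0457). In young mice alone it was 31.5 points (SE 14.2, limma adjusted p = 0.267).

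For the wider pathway, 35 other genes of storage and activation, receptors, SMAD partners, inhibitors and targets had 212 regions. Here 6 regions were called less often and 1 more often in Aged Sham than in Young Sham (2.83% and 0.472% of the 212, beside 4.9% and 0.264% of all regions), and 2 less often and 9 more often in Young Bleo (0.943% and 4.25%, beside 1.96% and 3.98%). In Aged Bleo 8 were called less often than in Young Sham and 0 more often (3.77% and 0.0%, beside 3.01% and 0.201%). The share called more often in Young Bleo was thus near that of all regions, and the regions named here were chosen after their values were seen. In Aged Bleo vs Aged Sham 3 were called less often and 2 more often (1.42% and 0.943%, beside 0.41% and 0.475%), and in aged vs young 6 less often and 0 more often (2.83% and 0.0%, beside 4.87% and 0.127%). In bleomycin vs sham 3 were called less often and 4 more often (1.42% and 1.89%, beside 1.23% and 2.17%). Since these regions were picked from the calls, their counts are given as a description, with no test. At the target Ccn2 (CTGF), a matricellular protein, a region at -4107 bp was called in 5 of 5 Young Sham, 3 of 4 Young Bleo, 1 of 4 Aged Sham and 5 of 5 Aged Bleo samples. A second region nearest to Ccn2, at -109005 bp, had a peak in 5 of 5 Young Sham, 0 of 4 Young Bleo, 2 of 4 Aged Sham and 1 of 5 Aged Bleo samples. The regions called more often in Young Bleo included 2 at Lrrc32, which encodes GARP, a carrier of latent TGF-beta, both in 4 of 4 Young Bleo and 0 of 5 Young Sham samples. Others lay at Itgb6, a subunit of an integrin that activates latent TGF-beta, and at Ltbp4, another latent ligand carrier, again in 4 of 4 against 0 of 5 samples. At Pmepa1, which encodes an inhibitor of SMAD signalling, a region at -105944 bp was called in 8 of 9 young and 0 of 9 aged samples, and at Ldlrad4, another inhibitor, a region at -71087 bp was called in 4 of 4 Aged Sham and 0 of 5 Aged Bleo samples.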

How the data were processed

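ATAC-seq peak lists of 18 samples, 1 per mouse, were used as deposited. Per the labels and the methods of the study, the authors aligned reads with BWA to mm10 and called peaks with MACS2 in each sample, after removal of multiply mapped read pairs and PCR duplicates. The deposited columns hold, for each peak, a fold enrichment ratio at the summit, a -log10 p-value, a -log10 q-value and an integer score. From these, summit fragments and background coverage were recovered (a whole number of fragments gave the deposited -log10 p to within 0.001 for at least 99.95% of peaks solved), and 19 mitochondrial peaks in 5 lists were left out. The lists give no coverage where no peak was called.

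Peaks that shared 1 bp or more were joined, and joined regions found in 2 or more samples were used. TSSs came from 45756 RefSeq transcripts. Presence was compared with two-sided Fisher's exact tests, and within-list percentiles and the share of each gene's regions called with limma 3.58.1 (R 4.3.3), without a block. All p-values were adjusted by Benjamini-Hochberg over all regions or genes and were computed over separate mice. Scripts used python 3.11.15, numpy 2.4.6, scipy 1.17.1, pandas 2.3.3, pysam 0.24.0 and matplotlib 3.10.9, and were tested on simulated data. By rule, the regions named were promoters, the strongest region of each gene and those called in a comparison by either test. Other regions given with values were chosen after their values were seen. The sequences of some of the regions called are not reported here. The members and lists were chosen with earlier results of these data known. Alternatives were stricter peaks, equal list lengths, other scales, a lane covariate, a replicate block and leaving out each sample.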

Additional observations from a re-analysis of the deposited data

Results flagged for a closer look

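Of 112 groups of 4 or 5 samples tested, 10 had a sample far from the others of its group, where chance alone gives about 1 in 20. At the Tgfbr1 promoter, Aged Sham 2 was the lowest of its group at a percentile of 87.68, with the nearest sample at 92.9. At Tgfb1 +2.4 kb, Aged Bleo 4 was the highest at 49.0, with the nearest at 34.1. At Tgfb2 +498 bp, Young Sham 2 was the highest at 31.34, with the nearest at 12.4. At Smad7 +11.4 kb, Aged Bleo 3 was the highest at 6.069, with the nearest at 1.68, and at Smad7 +38.4 kb, Young Bleo 3 was the lowest at 77.84, with the nearest at 80.5. At the Snai2 promoter, Aged Bleo 2 was the lowest at 28.87, with the nearest at 51.2.

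Shares of regions called are in steps of 1 region, so that a single region can set a sample apart. For Tgfbr2, Young Bleo 1 was the lowest at 66.67%, with the nearest at 77.8%. For Smad2, Young Bleo 4 was the lowest at 66.67%, with the nearest at 83.3%. For Smad3, Young Bleo 1 was the lowest at 40%, with the nearest at 60%, and Aged Sham 2 was the highest at 80.0%, with the nearest at 40%.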

How the results depend on the processing

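Most counts of called regions depended on the threshold of the peaks, and the cause was not tested. With a -log10 q of at least 5, 6 of 60 remaining member regions were called in Young Bleo vs Young Sham (6.28% of all regions) and 5 in bleomycin vs sham (3.56%). With a fold enrichment of at least 5 these counts were 7 (6.12%) and 6 (3.53%) of 60, and 0 in Aged Bleo vs Aged Sham (0.999%). With 21050 peaks per list, which left 39 member regions, they were 0 in Aged Sham vs Young Sham (2.92%), 7 in Young Bleo vs Young Sham (6.84%), 1 in Aged Bleo vs Young Sham (3.06%), 4 in bleomycin vs sham (4.45%) and 0 in aged vs young (1.86%), and Tgfbr2 +66.4 kb in Aged Sham vs Young Sham reversed to 5.0 points. With peaks over at least 50% of a region they were 6, 9, 3 and 7 of 63 in Aged Sham vs Young Sham, Young Bleo vs Young Sham, bleomycin vs sham and aged vs young, beside 6.4%, 6.96%, 3.84% and 8.41% of all regions.

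For strength, limma called 2 regions in Young Bleo vs Young Sham with 0 at uncalled regions (3.11% of all regions). Ranked among all peaks, it called 0 in Aged Bleo vs Young Sham (8.51%), 1 in Aged Bleo vs Aged Sham (1.16%), 1 in bleomycin vs sham (3.52%) and 0 in aged vs young (8.09%). On quantile-normalized log2 values it called 1 in Aged Bleo vs Young Sham (10.2%), and with lane as a covariate 0 there and 0 in aged vs young (0.0% of all regions in both). For shares of regions, equal lists gave 1 gene in Young Bleo vs Young Sham (9.21% of all genes), 1 in bleomycin vs sham (8.9%) and 0 in aged vs young (1.5%), a lane covariate 0 in aged vs young (0.0%), and subtraction of each sample's overall share, chosen after seeing the data, 2 in Aged Bleo vs Young Sham (7.44%), 1 in bleomycin vs sham (8.95%) and 0 in aged vs young (2.93%).

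Replicate numbers did not pair the samples, since the 25 same-numbered pairs had a median correlation of 0.032, with 5 above 0.1. With a replicate block, limma called 1 region in Young Bleo vs Young Sham (Ltbp1 +190.7 kb, adjusted p = 0.0496). Without the block 2.75% of all regions were called there. In Aged Bleo vs Young Sham Tgfb1 +2.4 kb was lost (adjusted p = 0.0712) and the Smad2 promoter gained (0.0308). Without the block 5.74% of all regions were higher and 4.81% lower in that contrast. By shares, the block gave 1 gene in Aged Bleo vs Young Sham (Tgfbr3, adjusted p = 0.0257) and 2 in aged vs young (Tgfbr3, 0.0379, beside Ltbp1, 0.0281). Without the block 2.72% and 17.5% of all genes passed in these contrasts. The shares of all regions and genes called with the block are not given here.

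Leaving out each sample in turn, regions called by presence numbered 1 to 2 in Aged Sham vs Young Sham, 0 to 2 in Young Bleo vs Young Sham, 4 to 6 in Aged Bleo vs Young Sham, 0 to 1 in Aged Bleo vs Aged Sham, 1 to 3 in bleomycin vs sham and 4 to 8 in aged vs young. By strength they numbered 0 to 1, 0 to 0, 0 to 4, 0 to 0, 0 to 1 and 1 to 2 in the same order, and genes by share 0 to 2 in Aged Bleo vs Young Sham and 0 to 3 in aged vs young. For each region the outcome by presence was fixed by its numbers of samples with a peak, and the presence shares of all regions moved too. Without 1 Young Sham sample they were 1.15% to 2.15% in Aged Sham vs Young Sham (5.17% with all samples). They were 1.69% to 2.16% in Young Bleo vs Young Sham (5.94%) and 3.73% to 5.66% in Aged Bleo vs Young Sham (3.21%). In aged vs young they were 5.72% to 7.53% (4.99%). Shares for the limma fits are not given here. Summits with few fragments, down to 8 at Smad2 +77.0 kb, limit what can be said of the regions that had them.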
